A study of Mus musculus with 16 samples.

Results

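Transcripts of 9 genes of bone morphogenetic protein (BMP) signalling were followed in mouse embryonic fibroblasts. They were the ligand genes Bmp2 and Bmp4, the secreted antagonist genes Grem1 and Nog, the target genes Id1, Id2 and Id3, and the inhibitory Smad genes Smad6 and Smad7. The genes were chosen by symbol from the table of read counts, and all 9 were found among its 23100 genes. All 9 also passed the filter on low counts, which left 15740 genes for the comparisons of genotype and growth state and 15439 for the comparisons by day.

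BMPs are secreted proteins that bind pairs of type I and type II serine/threonine kinase receptors. The receptors phosphorylate Smad1, Smad5 and Smad9, which enter the nucleus with Smad4 and switch on targets, among them the Id genes. Id proteins bind E proteins such as Tcf3, Tcf4 and Tcf12 and keep them off DNA. Gremlin 1 (Grem1) and noggin (Nog) hold BMPs outside the cell. Smad6 and Smad7 block the pathway inside the cell and are themselves targets, with Smad7 also acting on and induced by TGF-beta signalling. In connective tissue the pathway is best known for its part in the formation of cartilage and bone.

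Bulk RNA was sequenced from C57BL/6 mouse embryonic fibroblasts (MEFs), cultured connective tissue cells taken from E13.5 embryos and grown in DMEM with 10% FBS. Of the 4 cell lines, 2 were wildtype (Zac+/+) and 2 were mutant (Zac+/-) for Plagl1, also called Zac1, an imprinted zinc finger transcription factor gene expressed from the paternal copy. Each line was harvested at day 2 in vitro, labelled proliferative, and at days 8, 10 and 12, labelled quiescent, so that there were 16 libraries and each of the 8 combinations of genotype and day had 2. The title of the series speaks of extracellular matrix genes and of the network of imprinted genes. With no agent added, genotype and time in culture were the differences the labels give. No label says whether lines of a genotype came from separate embryos, so p-values measure the spread between these lines. The titles of the mutant libraries carry the code KOpat, which the labels do not expand. In both genotypes the titles carry the letter I for replicate 1 and L for replicate 2, and these letters are not expanded either.

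Total counts ran from 28079241, in mutant replicate 1 at day 2, to 61039793 per library, so that 3 counts corresponded to 0.0491 to 0.107 CPM, the counts scaled to the TMM-adjusted library total. Plagl1 (NCBI gene 22634), the gene that should differ between genotypes, was at 7.60 to 9.14 CPM in the mutant and 37.7 to 45.4 CPM in the wildtype day 2 libraries, and at 40.5 to 60.3 against 128 to 231 CPM in the quiescent ones. All 10 fibroblast markers had a median above 10 CPM. Of the 10 endothelial markers, 6 stayed under 1 CPM in every library, and Tie1 was at 0 throughout. The summed level of 6 proliferation markers was 1246 to 1522 CPM at day 2 and 187 to 429 CPM in the quiescent libraries. The 8 macrophage markers found summed to 12.0 to 370 CPM, with the highest sums in mutant replicate 1 (91.5 to 370) and wildtype replicate 2 (68.4 to 210), so they differed between lines of the same genotype. Cartilage markers (9 of 9 found) summed to 460 to 801 CPM at day 2 and to 1524 to 4554 CPM afterwards. The part of these markers in the results was not tested. In bulk samples, fewer cells of a type and less RNA per cell cannot be told apart.

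RefSeq (build GRCm38.p6) gave a window of 250 bases before to 50 bases after the start site for 5 of the 9 genes, namely Bmp4, Grem1, Id2, Id3 and Smad6. The 250 bases before the start are shown for 4 of them: Bmp4, Id2, Id3 and Smad6. Bmp4 was the gene with the largest rise, and the fall of Id2 had the smallest standard error among the Id genes. Id3 and Smad6 were both higher in the mutant lines at day 10. That difference was not detected by edgeR's quasi-likelihood test, with adjusted p of 0.645 for Id3 and 0.543 for Smad6. On that day 40.2% of all genes had lines that did not overlap between genotypes. The choice is therefore no result about genotype. Bmp4 lies at chr14:46390670-46390919 on the minus strand, Id2 at chr12:25096093-25096342 on the minus strand, Id3 at chr4:136143572-136143821 on the plus strand and Smad6 at chr9:64022060-64022309 on the minus strand. These coordinates belong to GRCm38.p6 and not to mm9, the build of the counts. Capitals mark GGCGCC, a GC-rich sequence that BMP-activated Smads are known to bind, and CANNTG, the E-box that E proteins bind.
Bmp4: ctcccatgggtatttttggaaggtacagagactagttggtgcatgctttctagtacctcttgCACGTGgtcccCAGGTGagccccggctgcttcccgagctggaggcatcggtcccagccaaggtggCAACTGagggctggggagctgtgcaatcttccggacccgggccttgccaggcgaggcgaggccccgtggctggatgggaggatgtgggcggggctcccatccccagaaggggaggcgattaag
Id2: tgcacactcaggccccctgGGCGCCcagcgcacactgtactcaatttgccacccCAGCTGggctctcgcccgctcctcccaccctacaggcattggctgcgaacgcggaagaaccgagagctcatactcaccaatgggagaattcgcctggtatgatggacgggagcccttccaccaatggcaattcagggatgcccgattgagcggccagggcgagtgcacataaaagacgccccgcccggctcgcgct
Id3: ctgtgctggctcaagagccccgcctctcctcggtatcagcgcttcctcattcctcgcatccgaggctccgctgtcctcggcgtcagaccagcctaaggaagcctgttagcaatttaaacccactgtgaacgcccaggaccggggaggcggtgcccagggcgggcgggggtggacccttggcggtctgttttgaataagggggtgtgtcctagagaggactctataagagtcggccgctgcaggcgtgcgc
Smad6: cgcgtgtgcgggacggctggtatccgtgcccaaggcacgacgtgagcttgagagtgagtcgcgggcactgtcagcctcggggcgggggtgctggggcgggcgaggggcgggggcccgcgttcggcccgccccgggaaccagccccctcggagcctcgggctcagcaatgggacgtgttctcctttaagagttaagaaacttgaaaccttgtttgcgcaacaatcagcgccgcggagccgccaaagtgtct

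The whole 300-base windows were searched on both strands. Positions are counted from the start site, with negative numbers before it. GGCGCC was found in Id2 at -231 and in Grem1 at -78, and in 11.9% of the 32851 RefSeq windows of that length. CANNTG was found 3 times in Bmp4, at -188, -177 and -123, once in Id2, at -196, and once in Smad6, at 8, which is outside the stretch shown. It occurs in 72.3% of all windows. Neither sequence was in the Id3 window. CAGAC, a short Smad-binding sequence, was found 2 times each in Grem1 and Id3, against 49.6% of windows, and its palindromic relative GTCTAGAC once in Smad6, at -4, against 0.213%. GGGGCCCC, the core of a GC-rich sequence that Plagl1 is known to bind, was in none of the 5 windows and in 1.08% of all. Such a match describes letters only, and no binding was measured.

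**Figure D1:**
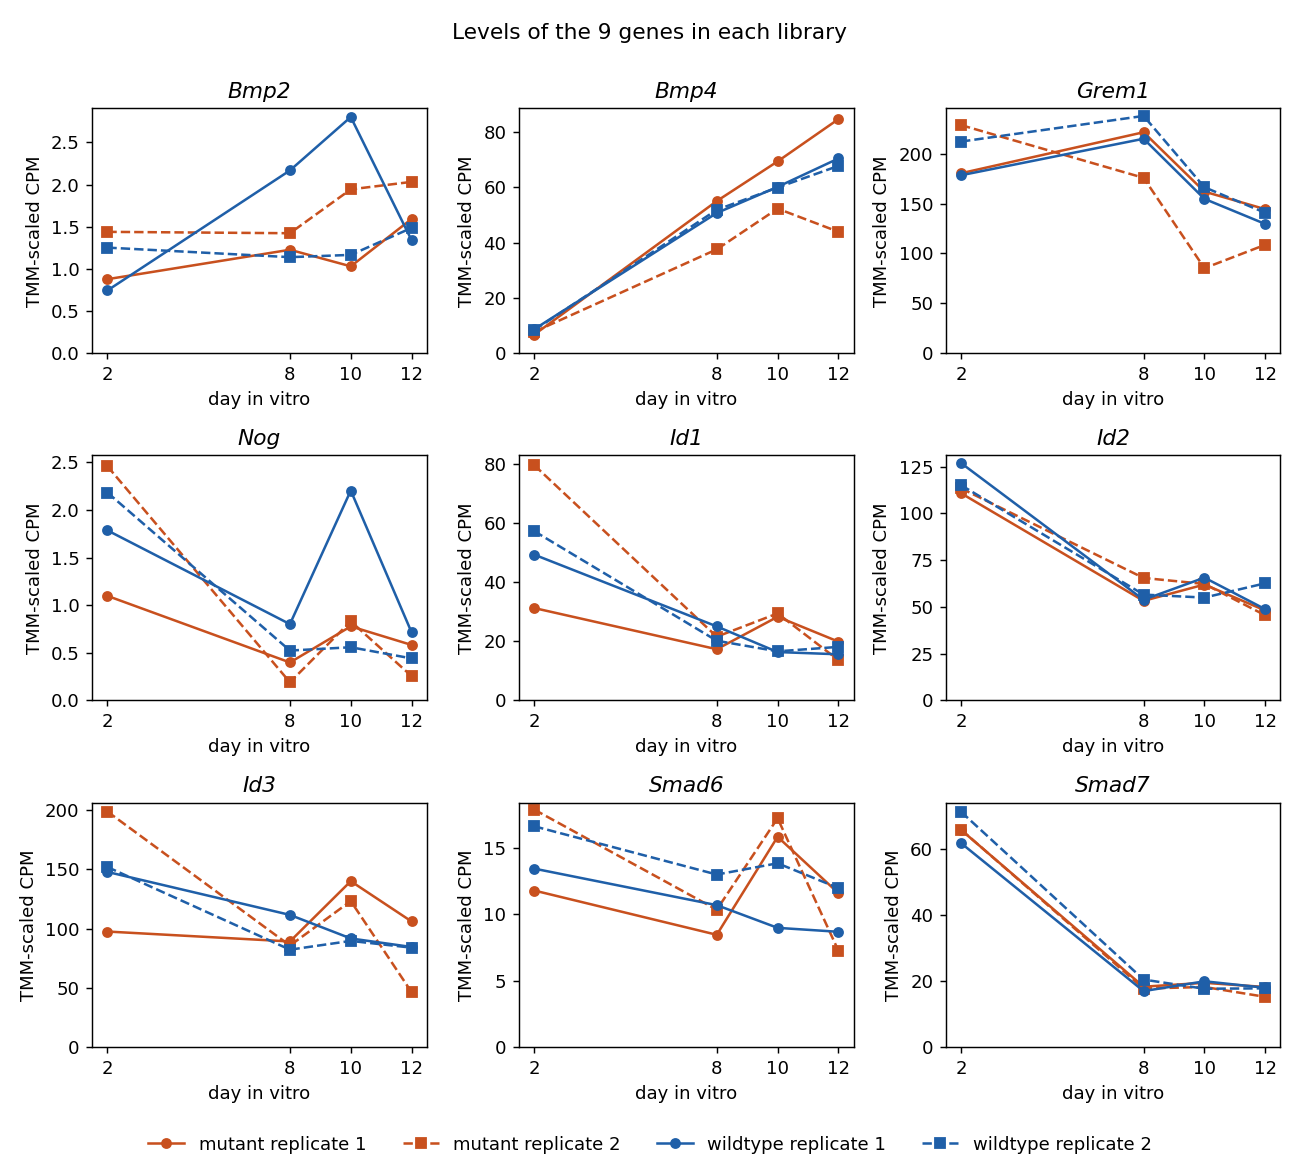
Level of each of the 9 genes, in TMM-scaled CPM, against day in vitro, 1 panel per gene and 1 line per cell line (blue wildtype, orange mutant, circles and solid lines replicate 1, squares and dashed lines replicate 2). Bmp4 starts at 6.73 to 8.69 CPM in all 4 lines and ends at 44.0 to 84.7, while Smad7 drops from 61.9 to 71.4 CPM at day 2 to 15.3 to 20.6 afterwards.

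Quiescent cells were first compared with proliferating cells of the same genotype. Bmp4 rose 7.08-fold in the wildtype and 7.66-fold in the mutant, and Smad7, Id2 and Id1 fell in both genotypes. Nog fell as well in the mutant. The 3 quiescent harvests of a line entered as their summed counts, and a gene was called where the Benjamini-Hochberg adjusted p of edgeR's quasi-likelihood test, over all genes, was under 0.05. Of the 9 genes, 4 were called in the wildtype, 1 higher and 3 lower. In the wildtype 47.6% of all 15740 genes were called, 23.9% higher and 23.7% lower. In the mutant 5 of the 9 were called, 1 higher and 4 lower, against 42.1% of all genes, 21.1% higher and 21% lower. The share of members called was thus near the background share. Their median log2 fold change was -0.73 in the wildtype and -0.56 in the mutant, against 0.05 over all genes in each. With the cell line as a block, Nog and Id3 were called too in the wildtype, which gave 6 of 9, and the same 5 in the mutant. Without mutant replicate 2, 3 of the 9 were called in the mutant.

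**Figure D2:**
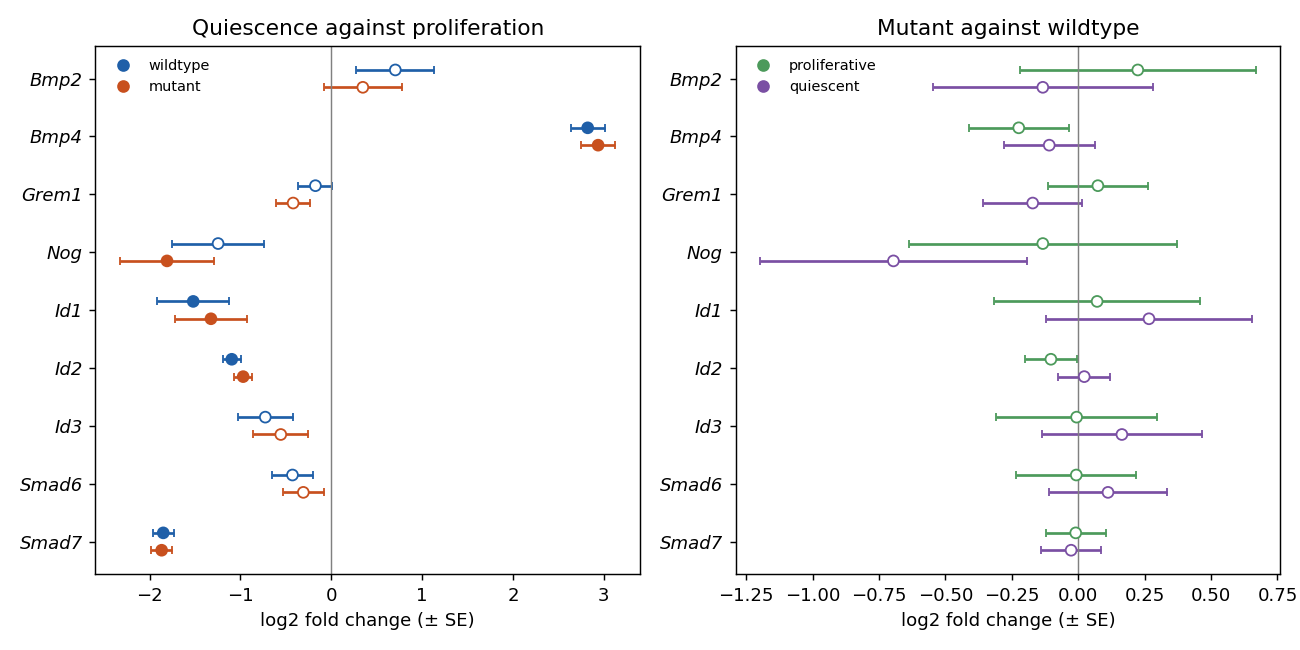
Log2 fold change with its standard error for each gene, on the left quiescence against proliferation in wildtype (blue) and mutant (orange), on the right mutant against wildtype in proliferative (green) and quiescent (purple) cells. Filled points were called at an adjusted p under 0.05 and open points were not: 4 wildtype and 5 mutant points are filled on the left, and 0 on the right.

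Bmp4 (NCBI gene 12159) encodes a BMP ligand that binds its receptors at high affinity. At day 2 it stood at 8.69 and 8.39 CPM in the wildtype lines (replicates 1 and 2 in this order, here and in what follows) and at 6.73 and 7.74 CPM in the mutant lines. In the 6 quiescent wildtype libraries it was at 50.8 to 70.5 CPM with a median of 60.1, and in the 6 mutant ones at 37.6 to 84.7 with a median of 53.7. The states did not overlap in any line. The log2 rise was 2.82 (SE 0.19) in the wildtype, with an adjusted p of 3.72e-06 in edgeR's quasi-likelihood test, and 2.94 (SE 0.19) in the mutant, with an adjusted p of 4.91e-06. Most of it was present by day 8, when each line stood 4.86 to 8.18 times its own day 2 level. The 2 mutant lines were further apart than the wildtype lines at day 12, at 84.7 and 44.0 CPM in replicates 1 and 2 against 70.5 and 67.8.

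Bmp2 (NCBI gene 12156), the closest relative of Bmp4, stayed low. Its day 2 levels were 0.744 and 1.25 CPM in wildtype and 0.878 and 1.44 CPM in mutant replicates 1 and 2, and its quiescent levels were 1.03 to 2.80 CPM, from 52 to 122 counts per library. The ranges overlapped. Its log2 change was 0.71 (SE 0.43) in the wildtype, with an adjusted p of 0.206, and 0.35 (SE 0.43) in the mutant, with an adjusted p of 0.543 (edgeR's quasi-likelihood test), and neither was called. Without wildtype replicate 1 the wildtype value was -0.0069. Per length of exon, Bmp4 was 9.27 to 20.1 times Bmp2 in the 4 libraries of day 2 and 37.0 to 116 times Bmp2 in the 12 quiescent libraries.

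Grem1 (NCBI gene 23892), whose product binds BMP2, BMP4 and BMP7, was the more abundant of the antagonists. At day 2 it was at 178 and 212 CPM in wildtype and at 180 and 229 CPM in mutant replicates 1 and 2. Quiescent libraries ranged from 130 to 238 CPM with a median of 161 in the wildtype and from 85.2 to 222 with a median of 153 in the mutant, so the states overlapped. The log2 change was -0.17 (SE 0.19, adjusted p 0.477) in the wildtype and -0.42 (SE 0.19, adjusted p 0.102) in the mutant by edgeR's quasi-likelihood test, neither of them called. In the mutant this value rested on replicate 2: it was 0.024 without that line and -0.91 without replicate 1, the latter with an adjusted p of 0.0026. Leaving day 8 out of the quiescent sum gave -0.72 in the mutant, with an adjusted p of 0.0307.

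Nog (NCBI gene 18121) was scarce, with 9 to 135 counts per library. At day 2 it stood at 1.79 and 2.18 CPM in wildtype and at 1.10 and 2.46 CPM in mutant replicates 1 and 2. Quiescent mutant libraries held 0.190 to 0.830 CPM, all under both mutant day 2 values. Wildtype quiescent libraries held 0.440 to 2.20 CPM, of which the highest, replicate 1 at day 10, passed both wildtype day 2 values. Nog fell in the mutant by 1.81 on the log2 scale (SE 0.52, adjusted p 0.0182). The wildtype value of -1.25 (SE 0.50) was not called, with an adjusted p of 0.0666 in edgeR's quasi-likelihood test, but was with the cell line as a block, at 0.0322. The mutant call was lost without mutant replicate 2 (-0.89, adjusted p 0.375) and with day 8 left out of the sum (-1.47, adjusted p 0.0537).

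The balance of Grem1 to Bmp4 transcripts was taken per kilobase of exon. Grem1 was 10.2 to 14.7 times Bmp4 in the 4 libraries of day 2, with a median of 12.96. By day 8 the ratio was 2.00 to 2.33, and at day 12 it was 0.848 to 1.23, with a median of 0.974. Each of the 4 lines thus went from a large excess of Grem1 over Bmp4 to levels of similar size. At day 10 the ratio was 1.28 and 1.38 in the wildtype lines, and 1.16 and 0.811 in the mutant lines. The ratio of Nog to Bmp4 was 0.199 to 0.387 at day 2 and 0.0061 to 0.0446 in the quiescent libraries. These ratios were not tested. Since exon lengths came from GENCODE vM21, on another build than the counts, the levels of the ratios are approximate. The same length was used for a gene on every day, so the choice of length does not alter the changes between days. Whether a gene's transcript forms changed between days was not examined.

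**Figure D3:**
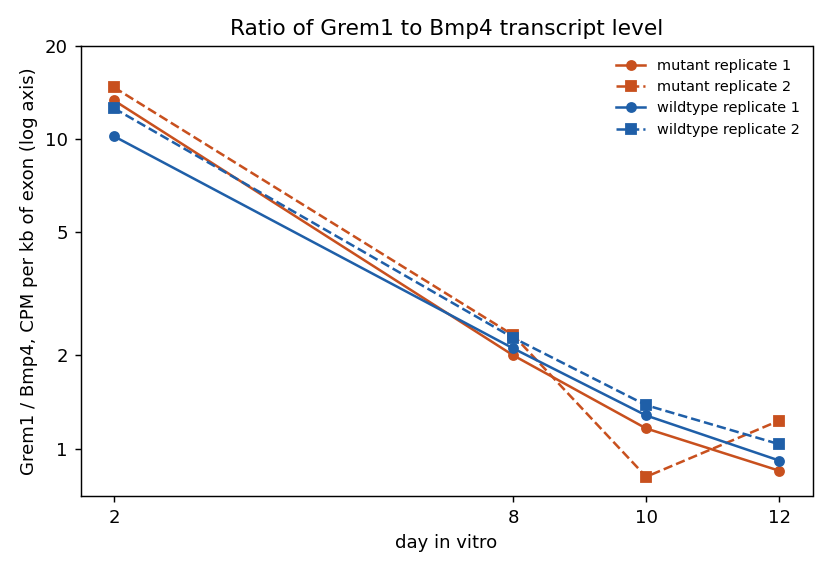
Ratio of Grem1 to Bmp4, both in CPM per kilobase of exon, against day in vitro, on a log axis with 1 line per cell line. The 4 lines lie between 10.2 and 14.7 at day 2, between 2.00 and 2.33 at day 8 and between 0.848 and 1.23 at day 12.

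The Id genes encode helix-loop-helix proteins without a DNA-binding region and are classical direct targets of BMP-activated Smads. Id2 (NCBI gene 15902) was at 127 and 115 CPM at day 2 in wildtype and at 111 and 113 CPM in mutant replicates 1 and 2. In quiescence it was at 48.7 to 65.6 CPM in the wildtype and 45.5 to 65.5 CPM in the mutant. No quiescent library reached any day 2 library. The log2 fold change was -1.10 in the wildtype and -0.97 in the mutant (SE 0.10 each), with adjusted p of 2.01e-05 and 5.47e-05 in edgeR's quasi-likelihood test.

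Id1 (NCBI gene 15901) fell in both genotypes with a wide spread between lines. Day 2 levels were 49.2 and 57.2 CPM in wildtype replicates 1 and 2, but 31.2 CPM in mutant replicate 1 and 79.5 CPM in mutant replicate 2. Quiescent levels were 15.6 to 25.0 CPM with a median of 17.3 in the wildtype, and 13.6 to 29.4 with a median of 20.7 in the mutant. All 12 quiescent libraries lay under all 4 libraries of day 2, by little for mutant replicate 1. The log2 change was -1.52 (SE 0.39, adjusted p 0.0199) in the wildtype and -1.32 (SE 0.39, adjusted p 0.0359) in the mutant (edgeR's quasi-likelihood test). The mutant value was -0.49 without mutant replicate 2 and -1.86 without mutant replicate 1. With all genes kept whatever their counts, the adjusted p were 0.0575 and 0.0877. The calls were also lost without either wildtype line, with adjusted p of 0.213 and 0.248 in the wildtype and 0.145 and 0.125 in the mutant, and without mutant replicate 2, with an adjusted p of 0.0680 in the mutant.

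Id3 (NCBI gene 15903) was the most abundant member per length. At day 2 it was at 148 and 152 CPM in wildtype replicates 1 and 2, at 97.6 CPM in mutant replicate 1 and at 199 CPM in mutant replicate 2. Quiescent wildtype libraries lay between 82.3 and 112 CPM, below both wildtype day 2 libraries, while mutant ones ran from 46.5 to 140 and overlapped. The log2 change of -0.73 (SE 0.30) in the wildtype had an adjusted p of 0.0892 and was not called in edgeR's quasi-likelihood test. It was called with the line as a block (adjusted p 0.0454) and with DESeq2 (0.0109). In the mutant the value was -0.56 (SE 0.30, adjusted p 0.185). Without mutant replicate 2 it turned to 0.22, and without mutant replicate 1 it was -1.18, with an adjusted p of 2.46e-04. Per length, Id3 was 2.27 to 2.84 times Id1 at day 2 and 3.11 to 5.11 times Id1 in quiescence.

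Mutant replicate 1 at day 2 was the library with the lowest total count. It held the lowest Id1, Id3, Smad6, Nog and Bmp4 levels of the 4 libraries of day 2, and by little the lowest Id2 level. There Id1 was at 31.2 CPM, Id3 at 97.6 CPM and Smad6 at 11.8 CPM. The part of depth in this was not tested. Smad7 was at 65.9 CPM there and at 66.0 CPM in mutant replicate 2. The summed level of the endothelial markers, a cell type known for Id1, Id3 and Smad6, was 24.0 to 35.5 CPM at day 2 and 5.85 to 19.6 CPM in the quiescent libraries, with Tie1 at 0, Cdh5 at most at 0.366 CPM and Pecam1 at most at 0.298 CPM in any library. Most of the sum came from Flt1, at 2.54 to 15.0 CPM, Kdr, at 0.811 to 15.7 CPM, Emcn, at 0.280 to 5.21 CPM, and Tek, at 0.329 to 4.35 CPM. Its part in the values of these genes was not tested.

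Smad7 (NCBI gene 17131), an inhibitory Smad that blocks activated type I receptors, fell in every line by nearly the same factor. It was at 61.9 and 71.4 CPM in wildtype and at 65.9 and 66.0 CPM in mutant replicates 1 and 2 at day 2. Quiescent levels were 17.1 to 20.6 CPM in the wildtype and 15.3 to 19.6 CPM in the mutant, far from any day 2 library. The log2 change was -1.85 (SE 0.12, adjusted p 2.62e-06) in the wildtype and -1.87 (SE 0.12, adjusted p 3.89e-06) in the mutant by edgeR's quasi-likelihood test. At day 8 each line was at 0.271 to 0.288 of its day 2 level. Relative to its own day 8 level, each line was at 0.865 to 1.17 at day 10 and at 0.858 to 1.06 at day 12.

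Smad6 (NCBI gene 17130), which acts mainly on BMP receptors and Smad1, was at 13.4 and 16.6 CPM in wildtype and at 11.8 and 17.8 CPM in mutant replicates 1 and 2 at day 2. Its quiescent range of 7.25 to 17.2 CPM overlapped these levels. The log2 change was -0.43 (SE 0.22, adjusted p 0.145) in the wildtype and -0.31 (SE 0.22, adjusted p 0.298) in the mutant by edgeR's quasi-likelihood test, and neither was called. With day 10 left out of the sum the mutant value was -0.67, with an adjusted p of 0.0310, and without mutant replicate 2 it was 0.038. Per length, Smad7 was 2.51 to 3.80 times Smad6 at day 2 and 0.722 to 1.51 times Smad6 in quiescence.

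Levels of different genes can be set side by side only per length. In wildtype cells at day 2, Id3 led at 117 CPM per kb ± 2.28 (SD, n = 2), followed by Id2 at 49.7 ± 3.43, Grem1 at 47.1 ± 5.76 and Id1 at 45.9 ± 4.84, of which neighbours overlapped. Smad7 came next at 15.2 ± 1.53, then Smad6 at 5.05 ± 0.756, Bmp4 at 4.14 ± 0.102, Nog at 1.17 ± 0.166 and Bmp2 at 0.281 ± 0.101. By day 12 the order was Id3 at 66.0 ± 0.315, Bmp4 at 33.5 ± 0.919 and Grem1 at 32.6 ± 1.91, the last pair overlapping, then Id2 at 22.8 ± 4.03, Id1 at 14.5 ± 1.53 and Smad7 at 4.11 ± 0.0266. Smad6 at 3.47 ± 0.781, Bmp2 at 0.397 ± 0.0292 and Nog at 0.340 ± 0.114 closed the list, with Bmp2 and Nog overlapping. Bmp4 thus moved from rank 7 to rank 2. In the mutant it did the same, from 3.51 ± 0.347 to 31.2 ± 14.0 CPM per kb, where its range overlapped those of Id3 and Grem1.

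The other genes of the pathway were taken from 6 lists, and 66 of them passed the filter on low counts. In the wildtype 36 of the 66 were called between states, 20 higher and 16 lower, and in the mutant 40, 20 in each direction. That is 54.5% and 60.6%, against 47.6% and 42.1% of all genes. Among the other BMP and GDF ligands, 4 of 13 rose and 1 fell in each genotype. The share called was 38.5% in each, under the 47.6% and 42.1% of all genes. Their median log2 change was 0.76 in the wildtype and 1.01 in the mutant. Bmp3, a ligand that opposes the other BMPs, rose from 0.140 ± 0.00870 to 7.10 ± 1.45 CPM (SD, n = 2) in the wildtype (log2 5.66, SE 0.43) and from 0.118 ± 0.0642 to 6.60 ± 2.36 CPM in the mutant (log2 5.66, SE 0.44). Bmp8b fell from 1.98 ± 0.264 to 0.173 ± 0.0120 CPM in the wildtype and from 2.31 ± 0.0411 to 0.169 ± 0.101 CPM in the mutant. Bmp15, an oocyte growth factor, had 0 counts in the wildtype day 2 libraries and 154 in the 6 quiescent ones, which is at least 15.9-fold higher against 3 counts over the group. In the mutant it had 6 counts at day 2 and 145 afterwards. Bmp7, Bmp10 and Gdf2 had 28, 0 and 2 counts in all 16 libraries and were not tested.

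The other secreted antagonists divided. In the wildtype 6 of 13 rose and 5 fell, and in the mutant 5 rose and 5 fell. The shares called were 84.6% and 76.9%, against 47.6% and 42.1% of all genes. The medians were 0.63 and 0.46 on the log2 scale. Chrdl1, a chordin-like antagonist, rose from 0.358 ± 0.134 to 20.8 ± 6.25 CPM (SD, n = 2) in the wildtype (log2 5.78, SE 0.415, adjusted p 1.12e-05 in edgeR's quasi-likelihood test) and from 0.516 ± 0.218 to 26.4 ± 8.67 CPM in the mutant (log2 5.58, SE 0.40). Fst, follistatin, which holds activins more tightly than BMPs, fell from 175 ± 5.83 to 73.1 ± 8.83 CPM in the wildtype and from 165 ± 9.29 to 70.0 ± 2.02 CPM in the mutant. Fstl3, its relative, fell from 29.5 ± 1.30 to 13.3 ± 1.02 CPM in the wildtype and from 25.3 ± 1.73 to 16.2 ± 0.764 CPM in the mutant. The antagonist genes therefore did not move in 1 direction.

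Among 11 receptors and coreceptors, 4 rose in each genotype, while 2 fell in the wildtype and 3 in the mutant. The shares called were 54.5% and 63.6%, against 47.6% and 42.1% of all genes. The medians were 0.09 and 0.03 on the log2 scale. Acvr2a, a type II receptor shared by BMPs and activins, rose from 20.4 ± 2.35 to 64.0 ± 1.22 CPM (SD, n = 2) in the wildtype and from 19.4 ± 2.26 to 67.5 ± 8.09 CPM in the mutant. Rgma, a BMP coreceptor, rose from 6.48 ± 0.210 to 20.9 ± 1.87 CPM in the wildtype and from 6.10 ± 1.45 to 19.3 ± 2.48 CPM in the mutant. Bmpr1a, the main type I receptor of BMP2 and BMP4, rose from 122 ± 8.91 to 211 ± 11.5 CPM in the wildtype and from 121 ± 17.5 to 207 ± 21.2 CPM in the mutant. All 3 were called in both genotypes.

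Of the 14 Smads and Smad regulators, 4 rose in each genotype, and 4 fell in the wildtype and 5 in the mutant. The shares called were 57.1% and 64.3%, against 47.6% and 42.1% of all genes. The medians were -0.05 and -0.14 on the log2 scale. Smad9, a BMP-activated Smad, fell from 13.9 ± 3.27 to 3.74 ± 0.100 CPM (SD, n = 2) in the wildtype (log2 -1.89, SE 0.21, adjusted p 7.46e-05 in edgeR's quasi-likelihood test) and from 13.4 ± 0.394 to 3.53 ± 0.730 CPM in the mutant. Smurf1, a ubiquitin ligase that works with Smad6 and Smad7 on receptors, fell from 135 ± 16.6 to 69.6 ± 4.48 CPM in the wildtype and from 138 ± 7.30 to 69.9 ± 8.18 CPM in the mutant. Ctdsp2, a phosphatase that acts on Smads, rose from 162 ± 23.8 to 331 ± 27.7 CPM in the wildtype and from 193 ± 44.7 to 348 ± 11.9 CPM in the mutant.

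Of 12 other BMP targets, 0 rose and 4 fell in the wildtype, 33.3% called against 47.6% of all genes, and 1 rose and 6 fell in the mutant, 58.3% against 42.1%. Among all genes 23.7% fell in the wildtype and 21% in the mutant. The medians of the list were -0.30 and -0.36 on the log2 scale, against 0.05 over all genes in each genotype. Msx2, a homeobox gene induced by BMPs, fell from 10.6 ± 0.295 to 5.28 ± 0.111 CPM (SD, n = 2) in the wildtype and from 9.18 ± 0.754 to 4.38 ± 0.465 CPM in the mutant. Atoh8, a helix-loop-helix gene, fell from 18.1 ± 4.99 to 7.81 ± 1.01 CPM in the wildtype and from 18.0 ± 4.48 to 8.37 ± 0.317 CPM in the mutant. Gata3, a zinc finger transcription factor gene, fell from 4.50 ± 0.145 to 1.82 ± 0.821 CPM in the wildtype and from 4.45 ± 0.418 to 1.29 ± 0.595 CPM in the mutant. Id4, the remaining Id gene, fell from 10.7 ± 0.0379 to 5.25 ± 2.12 CPM in the wildtype and from 10.1 ± 0.629 to 4.31 ± 1.82 CPM in the mutant. Id1, Id2, Id4, Msx2, Atoh8 and Gata3 were thus lower in the state where Bmp4 was higher, but not all targets were. Of the 12, 4 had a log2 change above 0 in the wildtype and 3 in the mutant. Msx1 went up from 0.724 ± 0.218 to 1.39 ± 0.647 CPM in the wildtype and from 0.226 ± 0.0643 to 1.64 ± 1.06 CPM in the mutant. Of the 3 E proteins that Id proteins bind, Tcf4 rose from 106 ± 1.91 to 268 ± 8.61 CPM in the wildtype and from 111 ± 4.10 to 266 ± 35.6 CPM in the mutant. Tcf12 rose from 119 ± 1.18 to 157 ± 8.78 CPM and from 117 ± 9.14 to 153 ± 6.71 CPM. Tcf3 was at 62.3 ± 5.11 and 61.8 ± 1.60 CPM in the wildtype and was not called in either genotype.

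**Figure D4:**
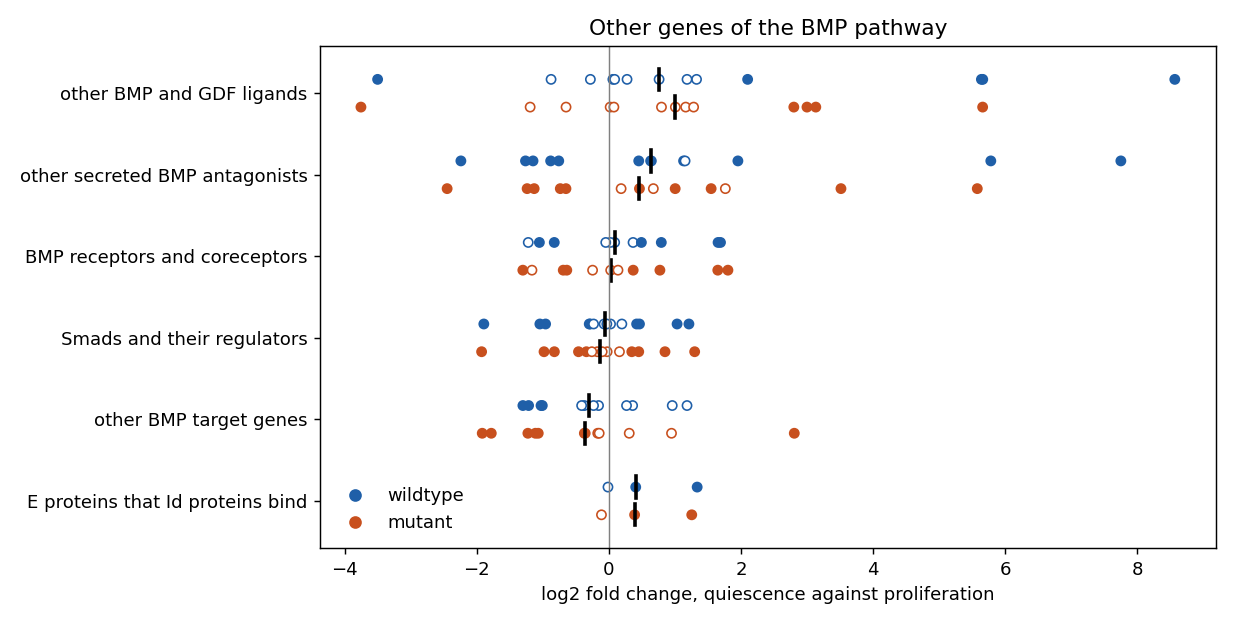
Log2 fold change of quiescence against proliferation for the 66 other genes of the pathway, 1 row per list, wildtype (blue) above mutant (orange), with filled points called, open points not called and a black bar at the median of the list. The wildtype points farthest right, Bmp15 and Sost, are fitted against day 2 libraries with 0 counts and are no measure of size: the counts give at least 15.9-fold and at least 8.98-fold.

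Mutant cells were then compared with wildtype cells. No difference between genotypes was detected for any of the 9 genes, in either state. With edgeR's quasi-likelihood test 1 of 15740 genes (0.00635%) was called at quiescence and 1 in proliferation, in each case Plagl1, and 0 genes differed in their change between states, with 76, 451 and 265 genes (0.483%, 2.87% and 1.68%) at an unadjusted p under 0.05. With DESeq2 the counts of called genes were 1, 3 and 1. None of the 9 genes had an unadjusted p under 0.05 in these 3 comparisons, or was called with DESeq2. At quiescence the genes with the narrowest intervals were Id2, with a log2 difference of 0.02 (95% interval -0.20 to 0.24), and Smad7, with -0.03 (-0.28 to 0.22). Bmp4 was at -0.11 (-0.49 to 0.27) and Grem1 at -0.17 (-0.59 to 0.25). Smad6 was at 0.11 (-0.38 to 0.61), Id3 at 0.16 (-0.55 to 0.88) and Id1 at 0.27 (-0.67 to 1.20). Bmp2 was at -0.13 (-1.06 to 0.80), and the widest interval was that of Nog, at -0.70 (-1.82 to 0.425). The intervals of Nog, Id1 and Bmp2 include 2-fold differences, and those of the other 6 genes do not.

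In proliferation the largest of the 9 values were those of Bmp2, at 0.22 (95% interval -0.77 to 1.22), and of Bmp4, at -0.22 (-0.65 to 0.20). Lines that do not overlap between genotypes were also counted. At quiescence this held for 1 of the 9 genes, Id1, whose summed libraries were higher in both mutant lines, against 22.7% of all genes. In proliferation it held for 2 of 9, Bmp4 and Id2, both lower in the mutant lines, against 23.8% of all genes. These shares were near the background. With 2 lines in each genotype, 0.333 is the smallest two-sided p of an exact permutation test. The change between states differed between genotypes by -0.56 (95% interval -2.15 to 1.02) for Nog and by 0.11 (-0.46 to 0.69) for Bmp4, and by amounts between -0.36 and 0.20 for the other 7 genes. In the 6 other lists too, no gene was called between genotypes. Those with an unadjusted p under 0.05 were Bmp15, Fstl3 and Msx1.

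Values by day were taken from the 16 libraries, where repeat harvests of a line count as independent. Between genotypes, 1 of 15439 genes (0.00648%) was called at each of days 8, 10 and 12, and it was Plagl1. Lines of the 2 genotypes did not overlap for 2 of the 9 genes at day 8 (Nog and Smad6, lower in the mutant), 3 at day 10 (Id1, Id3 and Smad6, higher in the mutant) and 2 at day 12 (Bmp2 higher and Id2 lower in the mutant). The same held for 35%, 40.2% and 21.1% of all genes.

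At day 10 Id1 was at 28.2 and 29.4 CPM in mutant and at 16.3 and 16.6 CPM in wildtype replicates 1 and 2. Id3 was at 140 and 123 CPM against 91.8 and 89.7 CPM, and Smad6 at 15.8 and 17.2 CPM against 8.98 and 13.8 CPM. All 3 genes, a pair of Id genes and an inhibitory Smad, were higher in both mutant lines on that day. The log2 differences were 0.81 (SE 0.33) for Id1, 0.54 (SE 0.36) for Id3 and 0.53 (SE 0.28) for Smad6. By edgeR's quasi-likelihood test, with adjusted p of 0.488, 0.645 and 0.543, none was called. Id1 alone among the 9 genes had an unadjusted p under 0.05 (0.0330), as had 9.76% of all genes. In the same test 1507 genes had such a p between genotypes at day 10, against 276 at day 8 and 227 at day 12. Id2 was at 62.0 and 62.3 CPM in the mutant and at 65.6 and 55.0 CPM in the wildtype, where the lines overlapped. The summed macrophage markers at day 10 were at 289 and 54.0 CPM in mutant and at 47.2 and 152 CPM in wildtype replicates 1 and 2, and the endothelial ones at 15.6 and 5.85 CPM against 18.4 and 7.87 CPM. The part of these sums in the levels of Id1, Id3 and Smad6 was not tested.

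Grem1 at day 10 was at 162 and 85.2 CPM in mutant replicates 1 and 2 and at 155 and 166 CPM in wildtype replicates 1 and 2. Only mutant replicate 2 was low. The log2 difference of -0.38 (SE 0.25, adjusted p 0.624 in edgeR's quasi-likelihood test) was not called. It was -0.96 without mutant replicate 1, with an adjusted p of 0.0251, and 5e-04 without mutant replicate 2, so it rested on that 1 line.

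**Figure D5:**
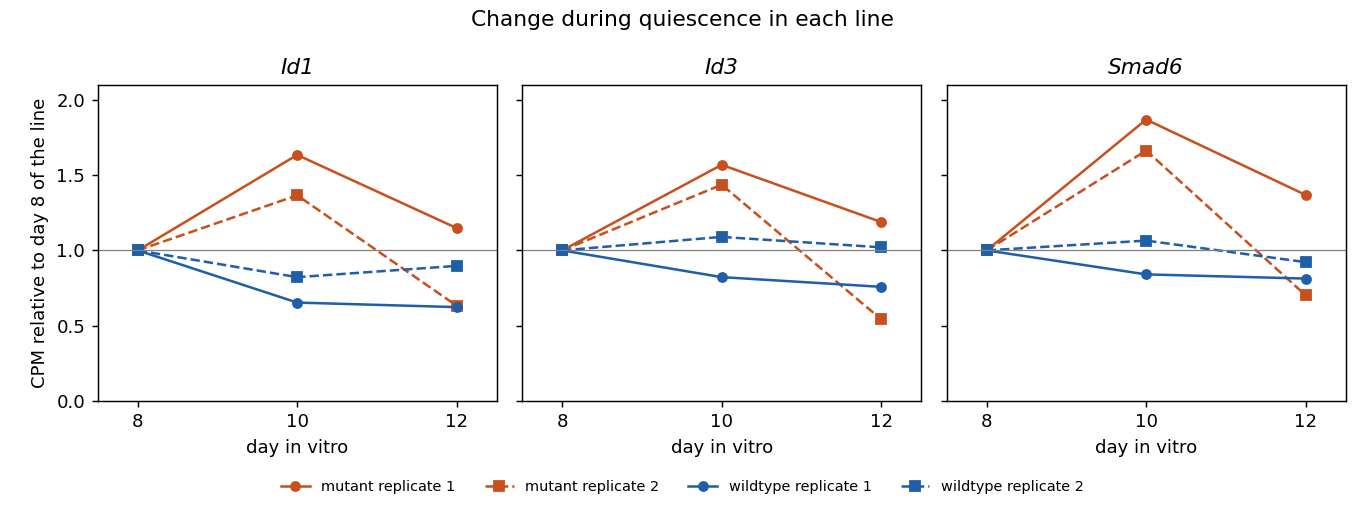
CPM of Id1, Id3 and Smad6 at days 8, 10 and 12, each divided by the day 8 value of the same cell line (blue wildtype, orange mutant, circles replicate 1, squares replicate 2). At day 10 both mutant lines stand at 1.37 to 1.87 in all 3 panels and the wildtype lines at 0.653 to 1.09.

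Steps between neighbouring quiescent days were compared after the values by day had been seen. From day 8 to day 10, Id1 changed to 1.63 and 1.37 of its level in mutant replicates 1 and 2, and to 0.653 and 0.822 in wildtype replicates 1 and 2. Id3 changed to 1.57 and 1.44 in the mutant and to 0.822 and 1.09 in the wildtype lines. Smad6 changed to 1.87 and 1.66 in the mutant and to 0.840 and 1.07 in the wildtype lines. The mutant lines lay above the wildtype lines for these 3 genes and for Bmp4, 4 of the 9, while 52.2% of all genes had lines that did not overlap between genotypes in this step, so the count is no result about these genes. The difference between genotypes in this step was 1.03 on the log2 scale for Id1 (SE 0.47, adjusted p 0.573), 0.86 for Smad6 (SE 0.39, adjusted p 0.564) and 0.68 for Id3 (SE 0.51, adjusted p 0.724), and none was called by edgeR's quasi-likelihood test. In this comparison 0% of genes were called by edgeR, 34 genes were with DESeq2, and 8.72% had an unadjusted p under 0.05 by edgeR. Smad6 (0.0443) alone among the 9 genes had such a p. Within genotypes, the step had an unadjusted p under 0.05 by edgeR for 2436 genes in the mutant and 583 in the wildtype. From day 10 to day 12 the levels in both mutant lines were lower again, at 0.702 and 0.463 for Id1, 0.758 and 0.377 for Id3 and 0.732 and 0.422 for Smad6 in replicates 1 and 2. Id2 was lower in both mutant lines as well, at 0.776 and 0.730. In the wildtype lines this step was to 0.954 and 1.09 for Id1, to 0.922 and 0.937 for Id3, to 0.967 and 0.865 for Smad6 and to 0.743 and 1.14 for Id2. Lines did not overlap between genotypes for 4 of the 9 genes, Id1, Id3, Smad6 and Grem1, against 40.6% of all genes. The mutant log2 values were -0.79 for Id1, -0.79 for Id3, -0.81 for Smad6 and -0.41 for Id2, with adjusted p of 0.264, 0.315, 0.162 and 0.152 in edgeR's quasi-likelihood test, and none was called, while 0.92% of all genes were. That share stands for 142 genes, a count that ran from 0 to 678 when 1 line was left out. The difference between genotypes in this step was -0.82 for Id1, -0.68 for Id3, -0.67 for Smad6 and -0.29 for Id2, with adjusted p of 0.894, 0.928, 0.894 and 0.905. By edgeR 0% of genes were called and 829 had an unadjusted p under 0.05, and DESeq2 called 0. Without mutant replicate 1, the values of this step within the mutant, not the difference between genotypes, were -1.09 for Id1 and -1.39 for Id3.

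From day 8 to day 12, 0.816% of genes were called in the wildtype and 1.09% in the mutant, and 0 of the 9 genes was in either, by edgeR's quasi-likelihood test or DESeq2. An unadjusted p under 0.05 was found for Grem1 in both genotypes and for Id2 in the mutant, as for 7.86% of all genes in the wildtype and 8.74% in the mutant. Grem1 ended at 0.592 to 0.652 of its day 8 level in all 4 lines. Its log2 value was -0.74 (SE 0.25, adjusted p 0.354) in the wildtype and -0.65 (SE 0.25, adjusted p 0.428) in the mutant by edgeR's quasi-likelihood test, neither of them called. The wildtype value was called where either mutant line was left out, with adjusted p of 0.0071 and 0.0079. Bmp4 ended at 1.17 to 1.54 of its day 8 level in the 4 lines, with log2 values of 0.43 (SE 0.25, adjusted p 0.809) and 0.47 (SE 0.25, adjusted p 0.662). So in quiescence Grem1 was lower and Bmp4 higher at the end than at day 8 in each line, with no call. The step from day 8 to day 10 for Grem1 in the mutant was -0.68 (SE 0.25, adjusted p 0.213), and -1.07 without mutant replicate 1, with an adjusted p of 0.0263.

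The genes whose log2 levels followed each member most closely over the 16 libraries were listed among 9929 or 9930 genes with a mean of at least 5 CPM. These correlations describe 4 lines that share the contrast of states, so any gene with a large change between states scores high. Bmp4 was closest to Pltp (r = 0.99), Arsi and Cercam, and Smad7 to Abcb10 (r = 0.99), Capn2 and Mybbp1a. Id2 was closest to Pcna (r = 0.98), a DNA replication clamp, Tbl3 and Ppa1. Id1 was closest to Adrm1 (r = 0.97), H2afx and Hspbp1, and Id3 to Gipc1 (r = 0.96), Rnaseh2c and Lmna. For Smad6 they were Tbc1d10a (r = 0.94), Bckdk and Tspan4, for Nog Mrps26 (r = 0.94), Zbed3 and Pxk, and for Grem1 Wnt2b (r = 0.88), Ccbe1 and Gas7. Bmp2 had the loosest match, with Cdc23 (r = 0.83) and Nek8.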

How the data were processed

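RNA-seq was run on 16 libraries from 4 lines of mouse embryonic fibroblasts. The authors deposited whole-number read counts per gene, without normalization. Per the labels' protocols, libraries were made with a stranded TruSeq kit from DNase-treated total RNA. The submitters' processing notes name HTSeq 0.6.1p1, Bowtie2 2.2.9, TopHat2 2.1.1 and bcl2fastq 2.18, with the build mm9. Neither the annotation nor whether counting used strand is given in the sources used here, and reads of overlapping antisense genes may therefore be mixed.

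Counts were tested with edgeR 4.0.16 (R 4.3.3) by the quasi-likelihood test with TMM scaling, filterByExpr and Benjamini-Hochberg adjustment over all genes, at a threshold of 0.05. For state and genotype, counts of days 8, 10 and 12 were summed per line, which left 8 summed libraries and 4 residual degrees of freedom. Values by day came from all 16 libraries with 8 residual degrees of freedom, where harvests of 1 line count as independent. Standard errors are the size of the log2 fold change divided by the root of the F statistic, and intervals are at 95%. CPM per kb used exon lengths of GENCODE vM21, which is on GRCm38. Floors of 3 counts cover counting error only.

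Lines pair by design between states and days: deviations of the same line correlated at 0.196 in the wildtype and 0.248 in the mutant over 15740 genes, and fits with the line as a block were run beside the unblocked ones. The 2 libraries of each genotype and day were compared by the chi-square of their counts per degree of freedom, which was 34.1 to 73.1. No such pair was a copy, and libraries of different groups were not compared.

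The 9 genes, the pathway lists and the markers were chosen with earlier results of these data known. The text names the 9 genes, Plagl1, in each list the 3 genes with the smallest p between states in the wildtype, any list gene called between genotypes, and the 3 genes most like each member, of which 1 is not reported here. Id4, Sost, Msx1 and the genes without a test were named after their values were seen. On simulated data of 15458 genes, 64% of 2-fold and 90% of 4-fold genotype differences at quiescence were recovered. Beside these 64 and 90 true calls there were 16 false calls. There 200 genes with ample counts were changed, 100 at each size, and the rest differed between no groups. An adjusted threshold is looser where many genes differ. These rates may therefore be too high for the real comparison, where 1 gene was called. Alternatives were DESeq2 1.42.0, its size factors in edgeR, 2 other filters on low counts, the replicate block, each line left out, and each quiescent day left out of the sum.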

Additional observations from a re-analysis of the deposited data

How the results depend on the processing

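The 66 results on the 9 genes were recomputed to give 729 values, of which 654 kept their direction and their side of the threshold, 9 lost a call, 19 gained one and 47 turned direction; unless a reason is given, the cause was not tested. The counts of called genes moved as follows. DESeq2 called 3 genes for genotype in proliferation, 1 for the difference between states, 15 for genotype at day 10, 306 for day 12 against day 8 in the wildtype (126 with edgeR) and 357 in the mutant (168 with edgeR). The replicate block, the cell line for states and days and the replicate number between genotypes, gave 2, 304 and 319 for the last 3, and the 7472 and 6633 genes it called between states were close to the 7486 and 6633 without it. Between genotypes the labels do not say what lines of the same number, which share the letter I or L, have in common. Deviations of same-numbered lines correlated at 0.0112 at quiescence and -0.0285 in proliferation. The block called Plagl1 alone at quiescence and in proliferation. Leaving out 1 line gave 1 to 4 called genes for genotype at quiescence, 1 to 3 in proliferation, 0 to 2 at day 8, 0 to 51 at day 10 and 0 to 1 at day 12. It gave 4185 to 7755 between states in the wildtype, 4559 to 5970 in the mutant, 3 to 6 of the 9 genes in the wildtype and 3 to 7 in the mutant. For day 12 against day 8 it gave 0 to 192 in the wildtype and 29 to 74 in the mutant. Fewer lines leave fewer residual degrees of freedom, and a lone line is assumed to vary like the others.

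Without day 10 in the quiescent sum, the genotype difference at quiescence turned to -0.10 for Id1, -0.023 for Id2, -0.13 for Id3 and -0.24 for Smad6, and the difference between states to -0.16, -0.11 and -0.23 for Id1, Id3 and Smad6. Without day 8, Id2 turned to -0.025 at quiescence, and with all low counts kept Id3 was at 0.0019 in proliferation. Leaving out 1 line gave these log2 ranges for genotype at quiescence: Bmp2 -0.43 to 0.25, Bmp4 -0.44 to 0.16, Grem1 -0.48 to 0.080, Nog -1.17 to 0.024, Id2 -0.019 to 0.062, Id3 -0.015 to 0.32, Smad6 -0.10 to 0.36 and Smad7 -0.095 to 0.036. In proliferation they were -0.21 to 0.67 for Bmp2, -0.12 to 0.24 for Grem1, -0.86 to 0.31 for Nog, -0.77 to 0.59 for Id1, -0.62 to 0.42 for Id3, -0.35 to 0.26 for Smad6 and -0.11 to 0.10 for Smad7. The difference between states ranged from -1.10 to 0.34 for Bmp2, -0.31 to 0.50 for Bmp4, -0.71 to 0.20 for Grem1, -1.22 to 0.35 for Nog, -0.32 to 1.03 for Id1, -0.43 to 0.94 for Id3, -0.14 to 0.46 for Smad6 and -0.11 to 0.064 for Smad7. Between states it gave -0.0069 to 1.43 for Bmp2 in the wildtype, and in the mutant -0.91 to 0.024 for Grem1, -1.18 to 0.22 for Id3 and -0.59 to 0.038 for Smad6. Grem1 at day 10 between genotypes ranged from -0.96 to 5e-04. Id3 and Nog in the wildtype between states were called with either mutant line left out (adjusted p 1.98e-04 and 3.03e-04 for Id3, 0.0346 and 0.0471 for Nog by edgeR's quasi-likelihood test), and Nog also without day 10 (0.0225). The steps between neighbouring quiescent days were chosen after seeing the data. They had 735 (day 8 to 10) and 877 (day 10 to 12) calls in the mutant with DESeq2, against 0 and 142 with edgeR. There the block gave 19 and 334, and leaving out 1 line 0 to 20 and 0 to 678. In the wildtype DESeq2 called 31 and 9 genes in these steps, against 0 and 0 with edgeR. The low counts of Bmp2 and Nog limit what can be seen of them.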
